A study of Mus musculus with 12 samples.

Results

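Mouse tracheal epithelial cells that carried a short hairpin RNA (shRNA) against Myb and had spent 9 days at an air-liquid interface were compared with cells that carried a scrambled shRNA at day 3. The comparison takes 6 of the 12 arrays of the series, 3 per group, and asks which genes of the late knockdown culture lay at the level of the early control, the pattern of a delayed culture, and which did not. All cells were primary tracheal epithelial cells of male C57BL/6J mice, grown on Transwell membranes with air above and medium below, and all received their shRNA by lentivirus, so the controls were transduced as well. The study ran 3 biological replicates of each combination of day 3 or 9 with Myb or scrambled shRNA, and the labels used here do not tie replicates to animals. The day 9 scrambled arrays served as a second control, from which the level reached by an undisturbed day 9 culture was read. Because the 2 groups differ both in day and in shRNA, the effects of time and of the shRNA cannot be told apart in their difference.

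The tracheal epithelium is built from basal cells, which give rise to secretory (club and goblet) cells and to multiciliated cells. Myb encodes a transcription factor that is known in mouse airway epithelium to act early in the formation of multiciliated cells, after Notch signalling has been turned off and before Foxj1, the factor that drives motile cilium genes. The regulators Gmnc and Mcidas and the RFX factors act in the same programme, which multiplies centrioles, docks them as basal bodies and builds axonemes from tubulin, dynein arms and radial spokes.

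Total RNA was measured on Illumina bead arrays. Levels below are log2 normalised intensities, and differences are day 9 Myb shRNA minus day 3 scrambled on the log2 scale, with their standard error (SE) from a linear model of all 4 groups on 12 arrays (limma). A gene was tested if 3 or more of the 6 arrays detected its probe (detection p-value under 0.01). This left 8709 genes, 7702 of them detected on all 6 arrays and 89 on no array of 1 group. A gene was called different at a Benjamini-Hochberg adjusted p under 0.05, and matched where an equivalence test placed the difference within 1.5-fold either way at the same threshold. A gene with neither call is undecided. In RNA from whole cultures, fewer cells of a type and less RNA per cell cannot be told apart. The 12 arrays detected between 13247 and 15100 probes each, and with 3 arrays per group the median SE of a difference was 0.164, which bounds what can be told apart.

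One array stood apart. Day 3 scrambled replicate 3 lay farther from the mean of the other arrays of its group than from the mean of any other group. Over all genes tested the median absolute distance was 0.305 to its own group and 0.232 to day 9 Myb shRNA. It was 0.239 to day 9 scrambled and 0.270 to day 3 Myb shRNA. The mean of its own group came from 2 arrays and the other means from 3. The ciliary genes of this array were the highest of the 3 early controls. Replicate 3 had the highest ciliary level in the other 3 groups as well. Arrays with the same replicate number deviated together, with correlations across genes of 0.249 to 0.507 between the 2 groups, so the numbers were read as pairs, although the labels do not state a pairing. Replicates 1 and 2 also correlated with each other between the 2 groups (0.3 and 0.21), so it was mainly replicate 3 that differed. Results are therefore also given with the replicate number as a block and without day 3 scrambled replicate 3. The Myb transcript itself was read by 4 probes, of which 1 was detected on 1 array, day 3 scrambled replicate 3 (6.56), and the others on none of the 12. The arrays therefore give no check of the knockdown.

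The tissue markers fitted the label in part. Of the pan-epithelial markers, Cdh1, Krt8, Krt18 and Krt19 were detected on all 6 arrays, while the probe for Epcam was detected on none. Collagen genes Col1a1, Col1a2 and Col3a1 and Pdgfra (fibroblasts), Ptprc, Cd52 and Tyrobp (leukocytes), and Pecam1, Cdh5 and Kdr (endothelium) were detected on none of the 6 arrays. Of the fibroblast markers 1 of 5, Dcn, was detected, and the summed linear intensity of the list was 262.5 to 269.7 in day 9 Myb shRNA and 308.3 to 361.8 in day 3 scrambled. Of the leukocyte markers 1 of 4, Cd68, was detected, with sums of 300.1 to 336.7 and 351.1 to 399.2.

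Between day 9 Myb shRNA and day 3 scrambled, 775 of 8709 genes differed (8.9%), 389 higher (4.47%) and 386 lower (4.43%), while 4319 matched (49.6%). Of these, 19 met both calls, being different but by less than 1.5-fold, and 3634 genes met neither. The 3 arrays of each group lay apart, with no overlap, for 2527 genes (29%). The differences ran from -3.01 for Dmbt1 to 2.96 for Ager, and 26 genes (0.299%) differed by more than 1.5-fold in a test against that margin (limma's treat). With median in place of quantile normalisation, the calls fell to 157 higher and 280 lower. Among genes named below, that setting ended the differences of Cby1, Cep97, Poc1a, Cfap53, Fam183b, Rsph9, Zmynd10, Spdef and Dcn (adjusted p from 0.0603 to 0.123) and the matches of Cep89, Cluap1, Hes1 and Cdkn1a (from 0.053 to 0.0904). With the replicate number as a block, 2231 genes differed (25.6%), with 1216 higher (14%) and 1015 lower (11.7%), and 5529 matched (63.5%). All 775 and all 4319 genes called without the block were among these. Without day 3 scrambled replicate 3, 1850 genes differed (21.2%), 971 higher (11.1%) and 879 lower (10.1%), and 3460 matched (39.7%). Leaving out any other array of the 2 groups lowered the count of different genes, to 394 and 414 without day 3 scrambled replicates 1 and 2 and to 459, 386 and 388 without day 9 Myb shRNA replicates 1, 2 and 3. The count of matched genes was 2781 and 2862 without day 9 Myb shRNA replicates 1 and 2. The shares over all genes in each fit are the background for the list counts below.

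**Figure D1:**
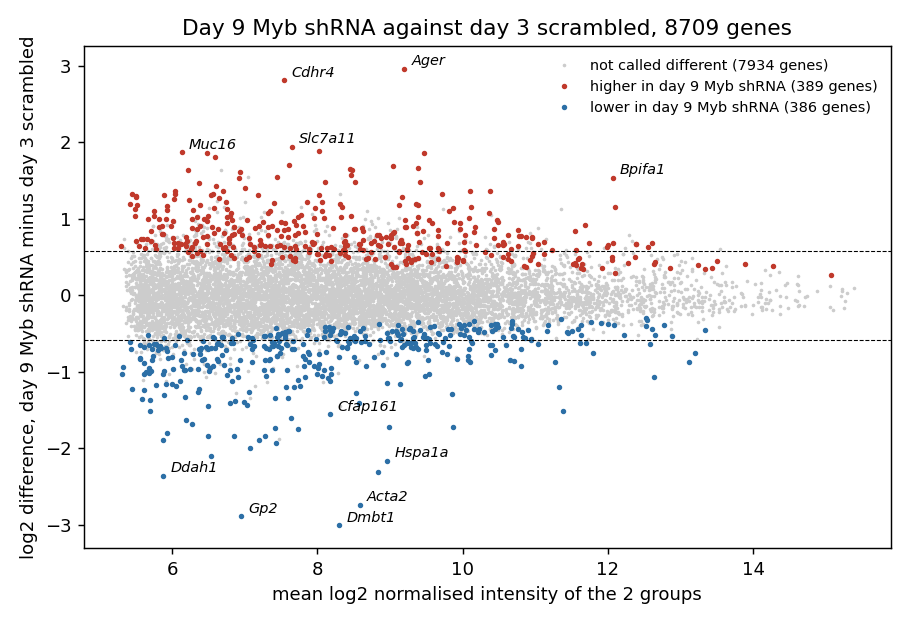
Log2 difference (day 9 Myb shRNA minus day 3 scrambled) against the mean log2 normalised intensity of both groups, for 8709 genes. Red and blue points are the 389 and 386 genes called higher and lower, and dashed lines mark 1.5-fold; most genes lie between the lines, and Ager, Cdhr4, Dmbt1 and Gp2 lie farthest from 0 among the labelled genes.

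Each gene was next placed against both controls at once. The share that differed was 16.6% (1450 genes) for day 9 against day 3 scrambled and 15.8% (1374 genes) for day 9 Myb shRNA against day 9 scrambled, over the same 8709 genes. These comparisons share arrays with the one above and do not support it. In joint tests, 2432 genes matched both controls (27.9%), 27 lay above both (0.31%), 50 lay below both (0.574%) and 5 lay between them (0.0574%). No gene passed as held at the day 3 level, that is matched to day 3 and different from day 9 scrambled, although 1211 reached an unadjusted p under 0.05, and the blocked fit placed 130 there (1.49%). Likewise no gene passed as having reached the day 9 level, with 1198 at an unadjusted p under 0.05 and 188 in the blocked fit (2.16%). The blocked fit placed 151 genes above both controls (1.73%), 111 below both (1.27%), 47 between (0.54%) and 3858 matched to both (44.3%). The joint calls were fragile. Of the 27, 50 and 5 genes above, below and between the controls, 6, 11 and 0 kept their call in each of the 9 fits that left out 1 array of the 3 groups. Among the genes below both, 1700020N18Rik, 2610203C22Rik, Dnah8 and Ddah1 were detected on no day 9 Myb shRNA array. They passed the filter only through the early control arrays, so their calls do not count as support. Of these, 1700020N18Rik and 2610203C22Rik are among the genes that kept their call in all 9 fits. The count above both fell to 11 without day 3 scrambled replicate 1, to 9, 9 and 6 without day 9 Myb shRNA replicates 1, 2 and 3, and to 9 and 12 without day 9 scrambled replicates 1 and 2. The count below both fell to 14 and 15 without day 9 Myb shRNA replicates 1 and 2, and to 25 and 27 without day 9 scrambled replicates 1 and 2. The count matched to both fell to 879, 866 and 1543 without day 9 Myb shRNA replicates 1, 2 and 3, and to 1436 and 1266 without day 9 scrambled replicates 1 and 2.

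The median level of cilium genes in the late knockdown culture was close to that of the early control. Over 147 tested genes of 6 ciliary lists, out of 222 listed, the median difference was 0.03, against -0.01 over all genes tested. In day 9 scrambled the same genes stood higher than in day 3 scrambled by a median of 1.07. The group was not uniform: 6 members rose (4.08%, against 4.47% of all genes), 17 fell (11.6%, against 4.43%) and 32 matched (21.8%, against 49.6%), and the other 92 met neither call. Of the 23 called, Dnah8 and Cfap53 were detected on no array of 1 group. With the block 19 rose, 31 fell, 70 matched (47.6%) and 10 passed as held at the day 3 level. Over all genes the blocked fit called 14% higher, 11.7% lower, 63.5% matched and 1.49% held at the day 3 level. The level of the 147 genes differed between replicates more than between the 2 groups. Its median was 7.75, 7.76 and 8.41 on the early control arrays and 7.68, 7.66 and 8.23 on the day 9 Myb shRNA arrays, so the groups overlapped. On the day 9 scrambled arrays it was 8.93, 8.88 and 9.31, above every array of both. Between arrays of the same number the median difference was 0.04, 0.05 and -0.09. Without day 3 scrambled replicate 3 it was 0.19 over the group, with 22 higher and 16 lower. In that fit 11.1% of all genes were called higher and 10.1% lower, so the ciliary falls lay near the share of all genes.

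**Figure D2:**
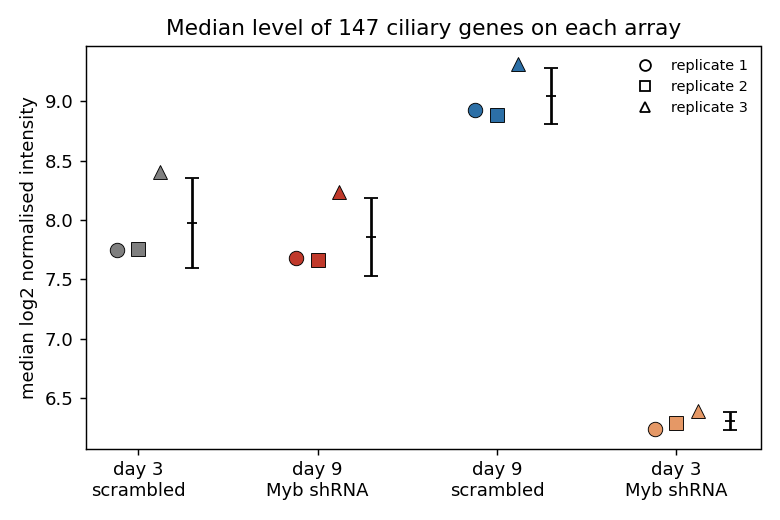
Median log2 normalised intensity of 147 ciliary genes on each of the 12 arrays, with symbols for replicate numbers and, beside them, the mean and SD of the 3 arrays. The day 9 Myb shRNA arrays (7.66 to 8.23) overlap the day 3 scrambled arrays (7.75 to 8.41), and the day 9 scrambled arrays (8.88 to 9.31) lie above both.

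The lists behind this group differed in their balance. Regulators of multiciliogenesis had a median difference of -0.23 over 11 genes and centriole and basal body genes -0.25 over 21, with 2 and 5 members lower and 0 higher in each. Of all genes 4.43% were lower and 4.47% higher. With the block 3 and 9 members were lower and 0 higher in each, against 11.7% and 14% of all genes. Between arrays of the same number the medians were -0.11, -0.16 and -0.25 for the regulators and -0.19, -0.25 and -0.36 for the centriole genes, all below 0. Without day 3 scrambled replicate 3, which leaves the late knockdown replicate 3 without its partner, the group medians were 0.06 and 0.05. The medians were 0.03 for 27 genes of intraflagellar transport and the BBSome (the machinery that carries cargo along cilia), 0.13 for 27 dynein arm and assembly genes, -0.02 for 28 genes of the axoneme, radial spokes and tektins, and 0.16 for 35 other ciliated cell markers. Day 9 scrambled exceeded day 3 scrambled in these 4 lists by medians of 0.73, 1.24, 1.34 and 1.62.

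Among the regulators, Mcidas, which starts the multiciliogenesis programme, read 8.10, 7.87 and 8.92 in day 9 Myb shRNA and 8.22, 8.15 and 9.41 in day 3 scrambled. Foxj1 read 6.31, 6.70 and 7.46 against 6.58, 6.82 and 6.91. The groups overlapped for both genes, and neither was called different (adjusted p = 0.584 and 0.919) or matched (adjusted p = 0.252 and 0.0613), although Foxj1 matched in the blocked fit (adjusted p = 0.014). Foxn4, a forkhead factor that acts in multiciliated cells in frog, fell, with 6.60, 6.71 and 6.93 against 7.60, 7.87 and 8.77, a difference of -1.34 ± 0.26 (adjusted p = 0.00774). Ccna1, which encodes cyclin A1, read 7.47, 7.26 and 8.09 against 8.46, 8.57 and 9.02 and fell by 1.08 ± 0.20 (adjusted p = 0.00648). Every day 9 Myb shRNA array lay below every early control array for both genes. Day 9 scrambled stood at 7.27 ± 0.32 for Foxn4 and 8.83 ± 0.05 for Ccna1 (SD, n = 3). Ccna1 also lay below the day 9 control (joint adjusted p = 0.0285), a call kept in 3 of the 9 fits with 1 array left out and at an adjusted p of 0.159 without day 9 Myb shRNA replicate 2.

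Of 21 centriole and basal body genes 5 fell (4.43% of all genes fell) and none rose, against 9 and 0 with the block (11.7% of all genes fell). Cep78, a centriolar protein, read 7.58, 7.54 and 7.71 against 8.51, 8.46 and 9.21, a difference of -1.11 ± 0.18 (adjusted p = 0.00253). It lay below day 9 scrambled as well (8.63 ± 0.10, joint adjusted p = 0.0178, and 0.105 without day 9 Myb shRNA replicate 2), and the late knockdown arrays did not overlap either control. Cep97, Poc1a and Cby1, which act at centrioles and basal bodies, fell, with differences of -0.69, -0.71 and -0.83 (adjusted p = 0.0339, 0.0252 and 0.0159). These 3 calls did not hold without some single arrays, the highest adjusted p being 0.135, 0.095 and 0.0654 (without day 3 scrambled replicate 1, day 9 Myb shRNA replicate 2 and day 3 scrambled replicate 2), and each gene was detected on 1 of 3 late knockdown arrays. Cep89, a protein of the distal appendages that anchor basal bodies, matched, at 7.86, 7.77 and 8.40 against 7.96, 7.96 and 8.12 (difference -0.01 ± 0.17, adjusted p of the match = 0.0109).

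Axonemal and cilium genes fell on either side of the early control. The sharpest fall was that of Cfap161, a protein of the ciliary microtubules, which read 7.12, 7.28 and 7.79 in day 9 Myb shRNA against 8.70, 8.74 and 9.42 in day 3 scrambled, a difference of -1.56 ± 0.21 or 2.94-fold (adjusted p = 0.000864). Day 9 scrambled stood higher still at 10.11 ± 0.16. Lrrc23, a radial spoke protein, read 8.87, 9.01 and 9.72 against 10.20, 10.29 and 10.99 and differed by -1.29 ± 0.25 (adjusted p = 0.00718). Morn5, a protein of motile cilia and sperm, read 8.81, 8.93 and 9.33 against 10.05, 9.79 and 10.32 and differed by -1.03 ± 0.17 (adjusted p = 0.00311). For all 3 genes the groups did not overlap. All 3 lay below both controls (joint adjusted p = 0.00409, 0.0306 and 0.0143), and their calls against day 3 held when any 1 array was left out. The joint call held in all 9 such fits for Cfap161, in 6 for Morn5 (adjusted p = 0.102 without day 9 Myb shRNA replicate 2) and in 2 for Lrrc23 (0.193 without day 9 Myb shRNA replicate 1). Without day 3 scrambled replicate 3 the differences were -1.32, -1.04 and -0.90.

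Some other motor and transport genes fell as well. Of 27 dynein arm and assembly genes 3 fell, 0 rose and 3 matched. For 27 intraflagellar transport and BBSome genes the counts were 3, 1 and 11. Over all genes 4.43% fell, 4.47% rose and 49.6% matched. Dnal1, a dynein light chain, fell by 0.70 ± 0.14 (adjusted p = 0.00844, and 0.0525 in a fit of the 6 arrays alone). Dnah8, a dynein heavy chain, was not well above background in day 9 Myb shRNA and at least 1.51-fold lower (adjusted p = 0.0026). Bounds of this kind set the brighter group against the lowest signal detected on each array of the dimmer group, or the gene's own signal where that was higher. Genes with a bound passed the filter only through the group where they were high, and 47 of the 89 such genes tested were called, so these calls describe the genes and do not count as support. Ift20 and Ift22, parts of the particle that moves along cilia, fell, with differences of -0.52 and -0.69 (adjusted p = 0.00387 and 0.0204), the second call being lost without day 3 scrambled replicate 1 (adjusted p = 0.0841), day 9 Myb shRNA replicate 2 (0.0624) or replicate 3 (0.0735). Rsph9, a radial spoke head protein, and Zmynd10, which helps to assemble dynein arms, also fell, with differences of -0.56 and -0.80 (adjusted p = 0.0464 and 0.0418). Their calls were lost in 5 and 4 of the 6 fits that left out 1 array of either group, including those without day 3 scrambled replicate 3 (adjusted p = 0.0696 and 0.0624). The blocked fit called 5 of 27 dynein and 5 of 28 axoneme genes lower, and 5 and 3 higher. Of 27 intraflagellar transport and BBSome genes it called 3 lower and 4 higher. Over all genes it called 11.7% lower and 14% higher. In all, 8 of the 147 ciliary genes, Dnah8 included, were among the 50 that lay below both controls (0.574% of all genes).

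Several ciliary genes matched the early control while day 9 scrambled stood above it. Rsph3a, a radial spoke protein, read 9.07, 8.94 and 9.13 in day 9 Myb shRNA and 9.05, 8.74 and 9.40 in day 3 scrambled, a difference of -0.02 ± 0.15 (adjusted p of the match = 0.00714), with day 9 scrambled at 9.61 ± 0.08. Tubb4b, the beta-tubulin of cilia, read 13.21, 13.18 and 13.43 in the first group and 13.09, 13.13 and 13.50 in the second, a difference of 0.03 ± 0.12 (adjusted p of the match = 0.0038), with day 9 scrambled at 13.86, 13.95 and 14.18. The marker listed as 1700016K19Rik read 10.82, 10.91 and 11.36 in the first and 10.98, 10.74 and 11.19 in the second, with day 9 scrambled at 12.31 ± 0.13. For these genes the 2 groups interleaved. Cluap1, which takes part in intraflagellar transport, matched as well (difference -0.17 ± 0.13, adjusted p = 0.015), although each of its 3 late knockdown arrays lay below each early control array. These 4 matches held when any 1 array was left out, and that of Cluap1 was lost with median normalisation (adjusted p = 0.0904). The 32 matched members had differences from day 3 scrambled of -0.29 to 0.22, and 20 of them were called higher in day 9 than in day 3 scrambled. The same call was met by 3 of the 17 ciliary genes that fell and by all 6 that rose. Over all genes 16.6% differed between these controls in either direction.

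The 6 ciliary genes above the early control were all below day 9 scrambled by a separate call. Cdhr4, a cadherin-related gene listed among ciliated cell markers, rose most, reading 8.56, 8.48 and 9.80 against 6.10, 5.82 and 6.49, a difference of 2.81 ± 0.35 or 7.01-fold (adjusted p = 0.000565). Day 9 scrambled read 10.69, 10.63 and 11.77, above every late knockdown array. Cdhr3, a receptor for rhinovirus C in human airway, read 8.96, 8.80 and 10.02 against 7.42, 7.52 and 8.41 and rose by 1.48 ± 0.33 (adjusted p = 0.0159), with day 9 scrambled at 11.25 ± 0.47. Fam183b and Cfap53, both ciliary proteins, rose by 0.85 ± 0.21 and 0.89 ± 0.22 (adjusted p = 0.026 and 0.0245), and Cfap53 was not well above background in day 3 scrambled, which makes it at least 1.61-fold higher. The call of Cdhr4 held without any 1 array. That of Cdhr3 was lost without day 3 scrambled replicate 1 (adjusted p = 0.0691), day 3 scrambled replicate 2 (0.0642) or day 9 Myb shRNA replicate 3 (0.056). Fam183b and Cfap53 lost theirs without the same 3 arrays (adjusted p up to 0.0974 and 0.0996), and Cfap53 also without day 9 Myb shRNA replicate 1 (0.0606).

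**Figure D3:**
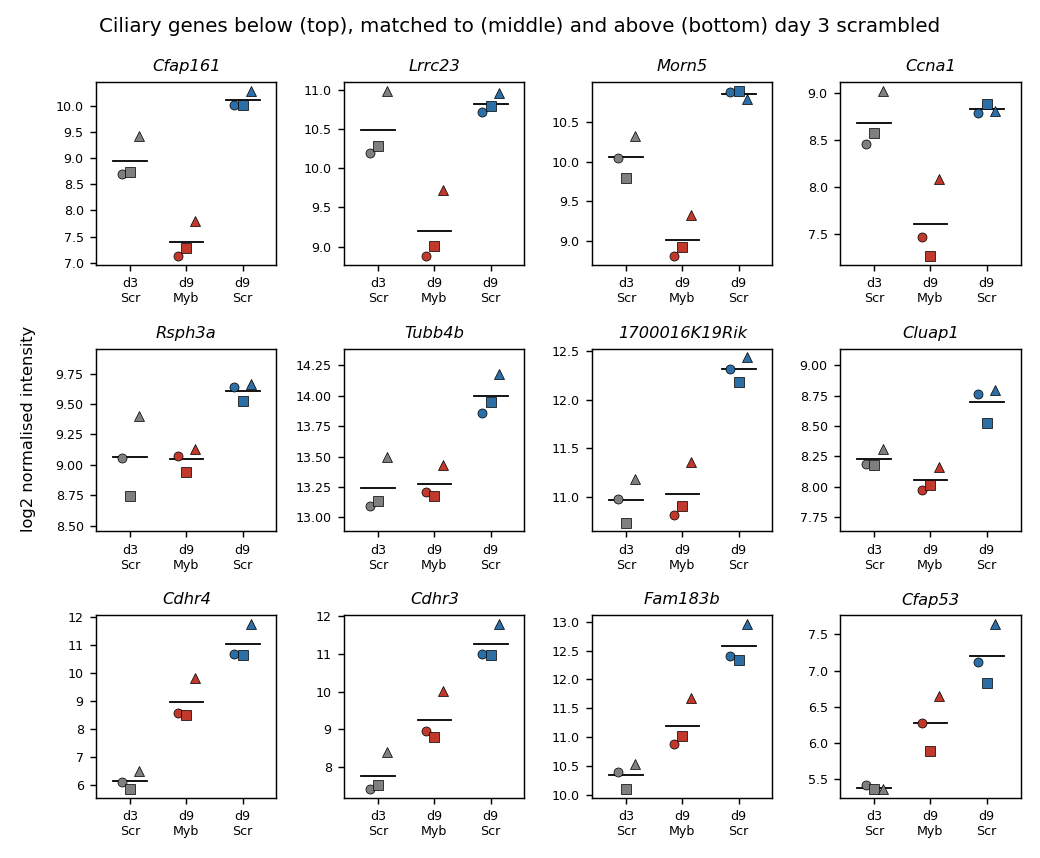
Log2 normalised intensity of 12 ciliary genes on the arrays of day 3 scrambled (grey), day 9 Myb shRNA (red) and day 9 scrambled (blue); circles, squares and triangles are replicates 1, 2 and 3 and lines are group means. Genes of the top row lie below the early control, those of the middle row match it and those of the bottom row lie above it, and the day 9 scrambled mean is the highest of the 3 in every panel.

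A small set of genes outside the ciliary lists lay between the controls. The 5 genes that differed from both were 3300002A11Rik, Gm867, Prr29, 1700024G13Rik and Dio1. Dio1, a deiodinase that activates thyroid hormone, read 6.87, 6.72 and 6.95 in day 9 Myb shRNA, above 5.86, 5.51 and 5.84 in day 3 scrambled and below 8.11, 7.84 and 8.52 in day 9 scrambled (joint adjusted p = 0.0488). Prr29 read 10.28, 10.21 and 10.63 in day 9 Myb shRNA, 9.05, 8.74 and 9.37 in day 3 scrambled and 11.71, 11.43 and 12.16 in day 9 scrambled (joint adjusted p = 0.0336). The other 3 differed from day 3 scrambled by 1.57 to 1.65 and from day 9 scrambled by -2.26 to -1.72. The 3 groups did not overlap for Dio1 or Prr29. No joint call of these 5 held without day 3 scrambled replicate 2, where the adjusted p ran from 0.14 to 0.253.

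The promoters of 5 of these ciliary genes are shown because they belong to genes that lay below (Cfap161, Lrrc23), at (Rsph3a) or above (Cdhr3, Cdhr4) the early control, and because each holds letters bound by RFX or MYB factors; they were chosen after their values were seen. Each runs from 250 bases before to 50 after the RefSeq start of the gene (GRCm38.p6), 5′ to 3′ on the strand of the gene. Capitals mark every match, on either strand, to the RFX motif (GTTGCCA), to the MYB site (TAACNG) or to the E2F site (TTTNNCGC), and adjoining matches run together.
Cfap161, chr7:83794790-83795089, minus strand: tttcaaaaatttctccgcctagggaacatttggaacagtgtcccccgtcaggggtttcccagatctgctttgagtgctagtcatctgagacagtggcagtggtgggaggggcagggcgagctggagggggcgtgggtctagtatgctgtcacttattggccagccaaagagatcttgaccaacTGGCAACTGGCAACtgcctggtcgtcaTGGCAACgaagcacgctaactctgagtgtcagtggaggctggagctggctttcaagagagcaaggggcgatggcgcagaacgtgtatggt
Lrrc23, chr6:124779678-124779977, minus strand: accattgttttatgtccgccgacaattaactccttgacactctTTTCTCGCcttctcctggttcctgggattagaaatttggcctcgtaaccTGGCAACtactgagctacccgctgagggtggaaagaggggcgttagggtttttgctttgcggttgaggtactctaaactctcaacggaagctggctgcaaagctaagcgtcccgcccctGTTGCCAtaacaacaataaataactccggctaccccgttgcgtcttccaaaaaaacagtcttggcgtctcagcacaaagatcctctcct
Rsph3a, chr17:7945364-7945663, plus strand: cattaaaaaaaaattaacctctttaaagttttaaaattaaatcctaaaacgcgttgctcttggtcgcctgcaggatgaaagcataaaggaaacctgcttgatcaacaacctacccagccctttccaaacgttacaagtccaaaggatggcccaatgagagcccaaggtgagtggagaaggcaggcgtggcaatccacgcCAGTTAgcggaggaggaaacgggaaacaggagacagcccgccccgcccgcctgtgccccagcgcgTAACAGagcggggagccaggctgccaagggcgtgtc
Cdhr3, chr12:33092826-33093125, minus strand: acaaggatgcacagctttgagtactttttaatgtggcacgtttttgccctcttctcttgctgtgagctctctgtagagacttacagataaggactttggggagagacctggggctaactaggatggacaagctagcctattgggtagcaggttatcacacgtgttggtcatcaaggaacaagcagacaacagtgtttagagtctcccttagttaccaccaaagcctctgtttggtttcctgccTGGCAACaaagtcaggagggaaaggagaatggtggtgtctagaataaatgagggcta
Cdhr4, chr9:107992207-107992506, plus strand: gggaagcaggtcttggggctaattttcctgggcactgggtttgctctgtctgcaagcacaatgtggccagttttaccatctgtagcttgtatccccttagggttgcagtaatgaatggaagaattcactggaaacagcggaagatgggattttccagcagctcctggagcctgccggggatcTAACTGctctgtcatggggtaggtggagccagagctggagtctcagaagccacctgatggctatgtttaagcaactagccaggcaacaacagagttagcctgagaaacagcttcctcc
Cfap161 holds 3 RFX motifs, Lrrc23 2 RFX motifs and 1 E2F site, Rsph3a 2 MYB sites, Cdhr3 1 RFX motif and Cdhr4 1 MYB site. Over 27025 genes with a RefSeq promoter of this length, 4.46% held an RFX motif, 23.2% a MYB site and 5.27% an E2F site. Of the 7015 genes tested that matched a promoter by symbol, 4.09% held an RFX motif and 19.1% a MYB site. An RFX motif was held by 6 of 23 promoters of the axoneme list (26.1%), 5 of 22 of the intraflagellar transport list (22.7%), 7 of 28 of other ciliated cell markers and 3 of 23 of the dynein list. A MYB site was held by 10 of 23 (43.5%), 5 of 22 (22.7%), 7 of 28 and 11 of 23 (47.8%) of the same lists. Among genes called higher, lower and matched, an RFX motif was held by 3.56%, 4.29% and 4.17%. These matches are a description of the letters and not of binding.

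A set of genes lay above both controls, with alveolar type 1 cell genes among them. Ager, the receptor for advanced glycation end products and a marker of alveolar type 1 cells, read 10.86, 10.13 and 11.05 in day 9 Myb shRNA against 8.33, 8.14 and 6.68 in day 3 scrambled, a difference of 2.96 ± 0.35 or 7.8-fold (adjusted p = 0.000456). Day 9 scrambled read 6.34, 6.22 and 6.06, so the late knockdown arrays lay above every array of both controls (joint adjusted p = 0.00354). Without day 3 scrambled replicate 3 the difference was 2.44. Of 20 tested alveolar type 1 and 2 markers, 8 rose (40.0%, against 4.47% of all genes), 0 fell and 4 matched, with a median difference of 0.52, and the blocked fit called 11 higher (14% of all genes). Besides Ager, Lmo7, Clic5 and Emp2 rose by 0.90 ± 0.15, 1.00 ± 0.17 and 0.69 ± 0.13 (adjusted p = 0.00315, 0.00376 and 0.00738). These calls against day 3 scrambled held without any 1 array. Lmo7 and Clic5 also lay above both controls, a call each kept in 2 of 9 fits with 1 array left out (adjusted p up to 0.116 and 0.128). Clic5 was detected on 1 of 3 early control arrays. The alveolar type 1 markers Aqp5 and Pdpn, which airway cells also express, matched (differences -0.02 ± 0.07 and 0.20 ± 0.09, adjusted p = 0.00144 and 0.00401), and Hopx was undecided (0.52 ± 0.29). Of the alveolar type 2 markers, which make surfactant, Sftpb and Sftpa1 were detected on none of the 6 arrays and Sftpc on 1 array. The 4 defining alveolar type 1 markers were all detected, with a summed linear intensity of 40194.8 to 41369.2 in day 9 Myb shRNA and 37039.9 to 38616.7 in day 3 scrambled. Most of this sum comes from Aqp5 (mean log2 level 14.70 and 14.72) and Pdpn (13.32 and 13.12), which airway cells also express. It is therefore not a measure of alveolar type 1 cells. The part of alveolar cells in these values was not tested.

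Other genes above both controls came from several cell functions. Slco2a1, a prostaglandin transporter, read 9.67, 9.84 and 10.13 against 8.11, 8.24 and 8.22, a difference of 1.69 ± 0.17 (adjusted p = 0.000207), with day 9 scrambled at 8.43 ± 0.09. Id1, an inhibitor of basic helix-loop-helix factors and a target of BMP signalling, read 9.82, 9.74 and 9.84 against 8.77, 8.37 and 8.40 and differed by 1.29 ± 0.15 (adjusted p = 0.000456), with day 9 scrambled at 8.08 ± 0.21. Pmp22, a membrane protein of cell junctions, rose by 0.96 ± 0.11, and Esam, a junction adhesion molecule known from endothelium, by 1.81 ± 0.23 (adjusted p = 0.000456 and 0.000579). For all 4 genes each late knockdown array lay above each control array. The joint calls of these 4 genes and of Ager held in all 9 fits with 1 array left out, the highest adjusted p being 0.037. Esam is 1 of 4 tested endothelial genes. Pecam1, Cdh5 and Kdr, the defining endothelial markers, were not detected in either group. Tgm1, a transglutaminase of the cornified envelope, rose by 1.08 ± 0.20 (adjusted p = 0.00664) and lay above both controls as well (joint adjusted p = 0.0454, kept in 1 of the 9 fits, and 0.235 without day 9 Myb shRNA replicate 1). Of 16 tested squamous and cornified envelope genes 2 rose and 0 fell (4.47% of all genes rose and 4.43% fell), with a median of -0.14. The blocked fit called 3 higher, and 14% of all genes. Ogn, a matrix proteoglycan, rose by 1.54 ± 0.27 (adjusted p = 0.00433).

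Of the 50 genes below both controls, 8 were ciliary, where 147 of the 8709 genes tested were. The 8 include Dnah8, and the 50 also include Ddah1, 1700020N18Rik and 2610203C22Rik, all detected on no day 9 Myb shRNA array. These genes passed the filter only through the early control arrays, so they do not count as support. Reg3g and Scgb3a1 were in the club and secretory list, Gp2 in the goblet list and Hey1 in the Notch list. Some of the 50, such as Tesmin (5.02) and Scin (5.10), had day 9 Myb shRNA means below the lowest detected signal of each such array (5.43 to 5.67). The sizes of such falls are set partly by background. Gp2, a membrane glycoprotein, read 5.47, 5.41 and 5.65 in day 9 Myb shRNA against 8.02, 8.04 and 9.13 in day 3 scrambled, a difference of -2.89 ± 0.31 (adjusted p = 0.000227). It was detected on 1 of 3 late knockdown arrays, so the size of its fall is set partly by background. Dmbt1, a mucosal defence glycoprotein, read 6.40, 7.00 and 7.00 against 9.16, 9.41 and 10.85, the largest fall, at -3.01 ± 0.37 (adjusted p = 0.000565). Day 9 scrambled stood at 7.69 ± 0.61 and 9.14 ± 0.55. The late knockdown and early control arrays did not overlap for either gene. Without day 3 scrambled replicate 3, which was the highest array for both, the differences were -2.52 and -2.48. Reg3g, an antibacterial lectin, read 12.00, 12.25 and 12.05 against 13.03, 12.95 and 13.53 and differed by -1.07 ± 0.13 (adjusted p = 0.000565). Scgb3a1, a secretoglobin of secretory cells, read 7.89, 8.11 and 7.62 against 8.97, 8.73 and 10.12 and differed by -1.40 ± 0.27 (adjusted p = 0.00784), with -0.98 without that array. Day 9 scrambled stood at 13.27 ± 0.07 and 9.63 ± 0.11, and both lay below both controls (joint adjusted p = 0.00275 and 0.0355). The joint calls of Gp2 and Reg3g held in all 9 fits with 1 array left out, while that of Dmbt1 reached 0.0625 and that of Scgb3a1 0.146 without day 9 Myb shRNA replicate 1.

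Hey1, a transcription factor that Notch signalling induces, also lay below both controls. It read 7.97, 8.11 and 8.28 against 9.56, 9.54 and 10.43 and differed by -1.73 ± 0.22 (adjusted p = 0.000585), with day 9 scrambled at 9.92 ± 0.21. Of 14 tested Notch pathway genes 2 fell, 0 rose and 4 matched, where 4.43%, 4.47% and 49.6% of all genes did. With the block the counts were 3, 2 and 6, where 11.7%, 14% and 63.5% of all genes were called. Hes1, another Notch target, matched (difference -0.13 ± 0.12, adjusted p = 0.00759). Hes6, an antagonist of Hes1, fell by 0.58 (adjusted p = 0.03), a call lost without any 1 array of either group other than day 3 scrambled replicate 3 (adjusted p up to 0.0912). Smim24, Fgl1 and Rangrf differed by -2.10, -1.84 and -1.74 (adjusted p = 0.000227, 0.000456 and 0.000118) and passed below both controls as well. The joint calls of these 3 genes and of Hey1 held in all 9 fits with 1 array left out. Smim24 stood at 5.48 ± 0.24 in day 9 Myb shRNA (SD, n = 3), near the lowest detected signals of those arrays (5.43 to 5.67). The size of its fall is therefore set partly by background. As another gene with a bound, Ddah1, an enzyme that breaks down inhibitors of nitric oxide synthase, was not well above background in day 9 Myb shRNA. It was at least 2.83-fold lower (adjusted p = 0.000326), but it passed the filter only through the early control arrays, so the call does not count as support.

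**Figure D4:**
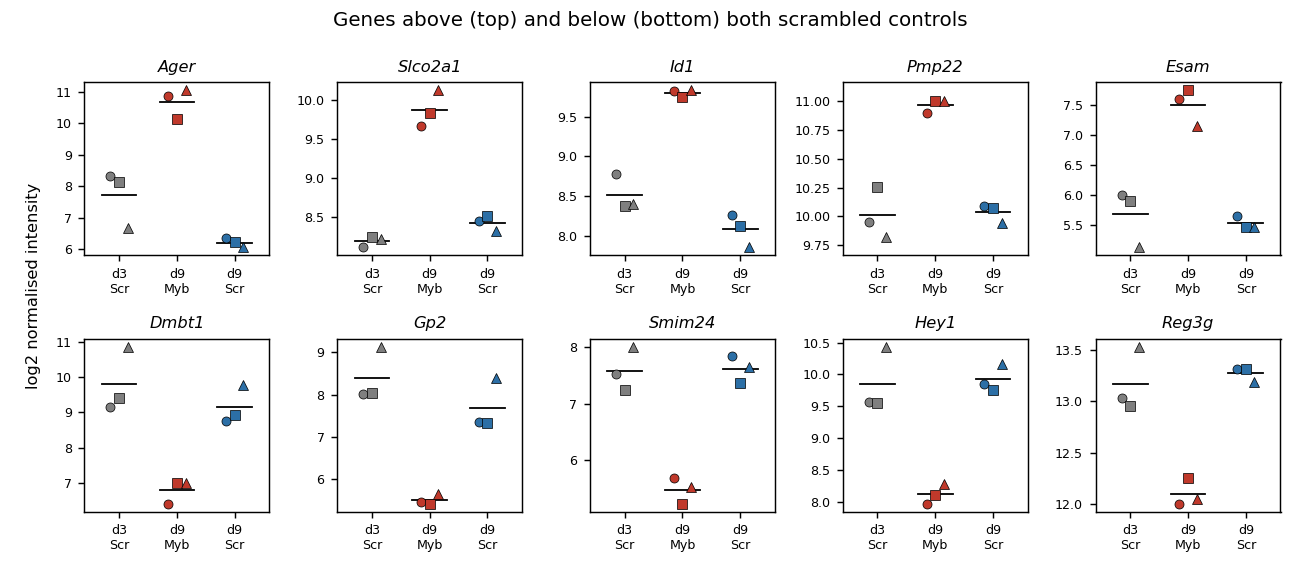
Log2 normalised intensity of 10 genes on the arrays of day 3 scrambled (grey), day 9 Myb shRNA (red) and day 9 scrambled (blue); circles, squares and triangles are replicates 1, 2 and 3 and lines are group means. The late knockdown arrays lie above every control array for Ager, Slco2a1, Id1, Pmp22 and Esam, and below every control array for Dmbt1, Gp2, Smim24, Hey1 and Reg3g.

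Secretory cell genes moved in both directions. Of 37 tested club and secretory genes, 4 rose, 3 fell and 16 matched (43.2%), with a median of 0.11. Of all genes 4.47% rose, 4.43% fell and 49.6% matched. The blocked fit called 11 higher, where it called 14% of all genes higher. Bpifa1, a secreted airway defence protein, rose most clearly, with 12.77, 13.01 and 12.73 in day 9 Myb shRNA against 11.21, 11.31 and 11.37 in day 3 scrambled (difference 1.54 ± 0.11, adjusted p = 1.07e-05), and day 9 scrambled stood beside it at 12.52 ± 0.10. Cyp4b1, a monooxygenase of club cells, rose by 0.68 ± 0.11 (adjusted p = 0.00238), with day 9 scrambled at 12.29 ± 0.17 against 12.41 ± 0.15 (SD, n = 3). Cbr2 and Gsto1, abundant club cell enzymes, matched (adjusted p = 0.000882 and 0.000738), as did the club cell marker Cyp2f2 (0.00172). The 3 genes lie at the top of the scale, and Cyp2f2 read 15.44, 15.44 and 15.44 in day 9 Myb shRNA and 15.37, 15.28 and 15.37 in day 3 scrambled, since quantile normalisation gives equal ranks equal values. Scgb1a1, the defining club cell secretoglobin, read 7.71, 8.03 and 7.93 against 8.48, 8.27 and 8.49 and was undecided (difference -0.52 ± 0.26, adjusted p = 0.208), while day 9 scrambled stood at 10.09 ± 0.60.

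Of 13 tested goblet and mucus genes 2 rose and 3 fell (4.47% of all genes rose and 4.43% fell). With the block 4 rose and 3 fell (14% and 11.7% of all genes). Muc16, a membrane mucin, was not well above background on any day 3 scrambled array (5.33, 5.10 and 5.16) and read 6.68, 6.83 and 7.68 in day 9 Myb shRNA, at least 2.79-fold higher (adjusted p = 0.00437, for a gene that passed the filter only through the late knockdown arrays), with day 9 scrambled at 7.07 ± 0.36. Spdef, which drives goblet cell formation, fell by 0.69 ± 0.16 (adjusted p = 0.0187), a call lost without day 9 Myb shRNA replicate 1 (adjusted p = 0.0681) or replicate 3 (0.0653). Muc5ac, a defining goblet mucin, was detected in neither group.

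Genes of ion and fluid transport were higher or level. Of 13 tested, 5 rose (38.5%, against 4.47% of all genes), 0 fell, 6 matched and Scnn1g and Atp1b1 were undecided, with a median of 0.29. The epithelial sodium channel subunits Scnn1a and Scnn1b read 11.92, 11.95 and 12.56 and 10.25, 10.23 and 10.71 in day 9 Myb shRNA, against 11.13, 11.24 and 11.30 and 9.05, 9.20 and 7.36 in day 3 scrambled. They rose by 0.92 ± 0.19 and 1.86 ± 0.40 (adjusted p = 0.0121 and 0.0134). Replicate 3 of the early control was well below the others for Scnn1b, whose difference was 1.27 without it, and the call was lost without day 9 Myb shRNA replicate 3 (adjusted p = 0.0538). Slc4a4, a bicarbonate transporter, rose by 1.11 ± 0.22 (adjusted p = 0.00879). Slc12a2, the chloride importer of secreting epithelia, rose by 0.77 ± 0.16 (adjusted p = 0.0117, and 0.0519 without day 9 Myb shRNA replicate 3). Day 9 scrambled stood at 11.44 ± 0.29, 8.24 ± 0.27, 9.85 ± 0.23 and 10.35 ± 0.21 for these 4 genes.

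Several genes of the cytoskeleton, matrix, stress response and junctions were lower in the late knockdown culture, and day 9 scrambled also stood below day 3 scrambled for them. Acta2, smooth muscle actin, read 7.94, 7.54 and 6.18 in day 9 Myb shRNA against 10.01, 10.27 and 9.58 in day 3 scrambled, a fall of 6.66-fold (difference -2.73 ± 0.40, adjusted p = 0.00173), with day 9 scrambled at 6.53, 6.46 and 6.91. Hspa1a, an inducible heat shock protein, read 7.75, 7.72 and 8.17 against 9.98, 9.93 and 10.21 and fell by 2.16 ± 0.15 (adjusted p = 1.07e-05), with day 9 scrambled at 7.41 ± 0.09. Fn1, fibronectin, read 7.14, 6.08 and 6.16 against 8.47, 8.76 and 7.95 and fell by 1.93 ± 0.31 (adjusted p = 0.00285), with day 9 scrambled at 7.19 ± 0.55. For all 3 genes the late knockdown and early control arrays did not overlap. The tight junction genes Cldn6 and Cldn10 differed by -1.60 and -2.32 (adjusted p = 0.00514 and 0.00191), and day 9 scrambled stood at 6.03 ± 0.20 and 9.23 ± 0.27 beside 6.83 ± 0.71 and 7.68 ± 0.60 (SD, n = 3). Cldn1 was not well above background in day 9 Myb shRNA and at least 1.63-fold lower (adjusted p = 0.00413). It passed the filter only through the early control arrays. Of 14 tested matrix, fibroblast and smooth muscle genes 3 rose and 3 fell, with a median of -0.08, against 4 and 5 with the block. Of all genes 4.47% rose and 4.43% fell, or 14% and 11.7% with the block. Among the 14 genes Dcn, a fibroblast proteoglycan, read 6.95, 6.89 and 6.98 against 7.85, 7.56 and 7.49 and fell by 0.69 (adjusted p = 0.0367). Its call was lost without any 1 array of the 2 groups other than day 3 scrambled replicate 3 (adjusted p up to 0.141). The other 4 fibroblast markers were not detected in either group, and the part of fibroblasts in these changes was not tested.

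Of 17 tested cell cycle and mitosis genes 2 fell (4.43% of all genes fell) and 0 rose, with a median of -0.42, against 4 and 0 with the block (11.7% of all genes fell). Cdk1, the kinase that starts mitosis, read 8.51, 8.43 and 8.41 against 9.50, 9.25 and 9.32 and fell by 0.91 ± 0.15 (adjusted p = 0.00289), with day 9 scrambled at 8.47 ± 0.32. Aurka, a spindle kinase, fell by 1.19 ± 0.25 (adjusted p = 0.0125, and 0.0569 without day 9 Myb shRNA replicate 2). None of 24 tested S phase genes was called different (limma, with 3 at an unadjusted p under 0.05), against 3 lower and 0 higher with the block, and 5 matched, with a median of -0.22. Of all genes 8.9% were called different and 49.6% matched, and the blocked fit called 11.7% lower and 14% higher. Of 26 tested basal cell markers 1 fell, 0 rose and 4 matched (4.43%, 4.47% and 49.6% of all genes), with a median of 0.32. The blocked fit called 8 higher and 2 lower (14% and 11.7% of all genes). Krt15 matched (difference -0.10 ± 0.13, adjusted p = 0.00902). Trp63, the defining factor of basal cells, read 8.67, 8.73 and 8.96 against 7.65, 7.51 and 8.87 and was undecided (0.78 ± 0.29, adjusted p = 0.108); without day 3 scrambled replicate 3 the difference was 1.21 (adjusted p = 0.00251), and the blocked fit called it higher (adjusted p = 0.00839).

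Of 24 tested genes of the Nrf2 and oxidative stress response 5 rose (4.47% of all genes rose), 1 fell and 10 matched (41.7%, against 49.6%), with a median of 0.33, and the blocked fit called 14 higher and 1 lower (14% and 11.7% of all genes). Slc7a11, the cystine importer for glutathione synthesis, read 8.49, 8.62 and 8.74 against 6.77, 6.92 and 6.34 and rose by 1.94 ± 0.26 or 3.84-fold (adjusted p = 0.000838), with day 9 scrambled at 8.68 ± 0.45. Hmox1, heme oxygenase, read 10.78, 10.97 and 10.61 against 9.54, 9.66 and 9.09 and rose by 1.36 ± 0.20 (adjusted p = 0.00176), with day 9 scrambled at 10.25 ± 0.19. Abcc1, an exporter of glutathione conjugates, rose by 0.98 ± 0.15 (adjusted p = 0.00191), with day 9 scrambled at 7.74 ± 0.20. For all 3 genes the late knockdown arrays lay above every early control array. Prdx1 and Sod1, which remove peroxide and superoxide, matched (adjusted p = 0.00194 and 0.00452).

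Other large rises were those of Il6ra, a subunit of the interleukin 6 receptor, with 7.01, 7.32 and 7.89 against 5.04, 5.55 and 6.03, and of Cyp7b1, an oxysterol hydroxylase, with 8.72, 8.60 and 8.07 against 6.98, 6.76 and 6.54. They amounted to 1.87 ± 0.34 and 1.70 ± 0.24 (adjusted p = 0.006 and 0.00125). This probe of Il6ra was detected on 1 of 3 early control arrays, and another probe of the gene, used where detection on all 6 arrays was required, differed by 0.53 (adjusted p = 0.0601). The groups overlapped for neither gene. Acaa1b, an enzyme of peroxisomal fatty acid oxidation, rose by 1.89 ± 0.49 (adjusted p = 0.0316), a call lost without day 3 scrambled replicate 1 or 2 (adjusted p = 0.062 and 0.0651) or day 9 Myb shRNA replicate 1 or 2 (0.0922 and 0.103). Among the large falls, Zfp41, a zinc finger gene, read 6.22, 5.79 and 6.22 against 7.68, 8.06 and 8.47 (difference -1.99 ± 0.19, adjusted p = 0.000118). Ppbp, a platelet chemokine gene, was not well above background in day 9 Myb shRNA and at least 2.40-fold lower (adjusted p = 0.00702). This gene too passed the filter only through the early control arrays.

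Matches were frequent among genes of energy metabolism. Of 36 tested genes of mitochondrial oxidative phosphorylation 33 matched (91.7%, against 49.6% of all genes) and none was called different (limma, with 3 at an unadjusted p under 0.05), with a median of -0.06. The blocked fit called 1 higher and 1 lower (14% and 11.7% of all genes). Uqcrc2, a subunit of complex III, read 12.41, 12.56 and 12.51 against 12.46, 12.60 and 12.58 (difference -0.05 ± 0.09). A match depends on the SE as well as on the difference, and the median SE over all genes was 0.164. Oxidative phosphorylation genes were also bright, with medians of 11.46 to 11.87 on the 6 arrays against 8.17 to 8.20 for all genes. The part of precision in their matched share was not tested. Of 25 tested p53 targets and cell cycle inhibitors 12 matched (48.0%, against 49.6% of all genes) and 1 rose (4.47% of all genes). With the block 18 matched and 5 rose (63.5% and 14% of all genes). The matches include Cdkn1a (12.37, 12.25 and 12.54 against 12.52, 12.54 and 12.70, adjusted p of the match = 0.00708, and 0.0766 with median normalisation) and Mdm2 (adjusted p = 0.00445). Cdkn2a, which encodes the inhibitors p16 and p19ARF, rose, with 6.88, 6.39 and 6.19 against 6.02, 5.59 and 4.96, a difference of 0.97 ± 0.26 (adjusted p = 0.037). It was detected on 1 of 3 early control arrays, and with the authors' log2 values the adjusted p was 0.0517. Its call was lost without day 3 scrambled replicate 3 (0.0579) and replicate 2 (0.0847), and without day 9 Myb shRNA replicate 1 (0.114) and replicate 2 (0.0822). Of 24 tested interferon response genes 1 rose (4.47% of all genes) and 11 matched (45.8%, against 49.6% of all genes). With the block 4 were higher, 1 lower and 13 matched, where 14%, 11.7% and 63.5% of all genes were. Usp18, an interferon-induced protease, matched day 3 scrambled (difference 0.07 ± 0.13, adjusted p = 0.00616), while day 9 scrambled stood at 11.35 ± 0.13 beside 10.51 ± 0.16 (SD, n = 3). Of 31 tested luminal epithelial genes 13 matched (41.9%), among them Krt19 (adjusted p = 0.00298) and St14, a membrane protease (adjusted p = 0.0041). Of the 31, 5 fell and 1 rose, where 4.43% and 4.47% of all genes did. With the block 10 fell and 5 rose, where 11.7% and 14% of all genes did. Among 5 tested leukocyte genes Laptm5, a lysosomal membrane protein, fell by 1.27 (adjusted p = 0.00183), 1 rose, 1 matched and Cd68 was undecided, while Ptprc, the defining leukocyte marker, was not detected. Of 8 tested inflammation genes 1 rose and 1 matched, and of 4 tested tuft, neuroendocrine and ionocyte genes 1 matched with no call of a difference by limma, 0 at an unadjusted p under 0.05 and none with the block. Beside these 3 short lists, 4.47% of all genes rose, 4.43% fell and 49.6% matched.

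**Figure D5:**
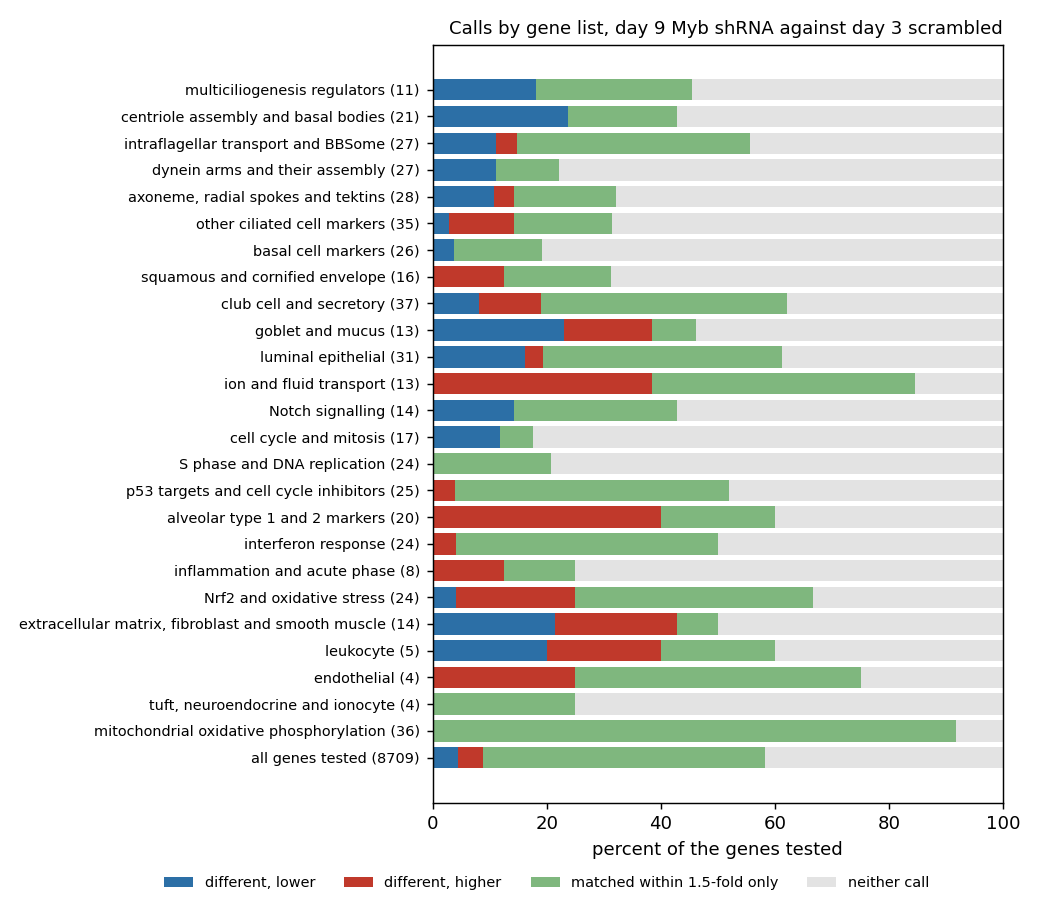
Share of the tested genes of each list (number in brackets) called lower (blue) or higher (red), matched within 1.5-fold but not different (green), or with neither call (grey), for day 9 Myb shRNA against day 3 scrambled. Oxidative phosphorylation genes are almost all green, alveolar and ion transport genes have the longest red bars among lists of over 10 genes, and all genes tested stand at the foot.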

How the data were processed

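Total RNA of 12 cultures was measured on Illumina mouse bead arrays (45281 probes), 3 arrays for each of 4 groups. The deposited probe signals are intensities on a linear scale, not normalised, from BeadStudio 3.0 per the submitters' processing notes. They come with a detection p-value per probe and array, per the file headers. A second deposited table holds the authors' log2 values of the same arrays; limma is named in the submitters' processing notes, and the normalisation is not given in the sources used here. Of the probe signals 28.8% to 34.4% per array were below 0.

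The intensities were background-corrected against negative controls inferred from the detection p-values, quantile-normalised and log2-transformed (neqc, offset 16, limma 3.58.1 in R 4.3.3). Probes were named from the platform annotation (35784 named, 9497 unnamed), with symbols updated through the Entrez ID (28620 probes), accession (2637), synonym (2343) or current symbol (2128), and 56 kept as given. Of 13988 probes detected on at least 3 of the 6 arrays, 1401 had no gene name and were not tested. Where a gene had more than 1 probe (2842 genes) the brightest was kept; no such gene had probes called in opposite directions. Group means of all 4 groups were fitted with lmFit and eBayes with an intensity trend (8 residual degrees of freedom), with Benjamini-Hochberg adjustment over 8709 genes. A match is a pair of one-sided moderated tests against a 1.5-fold margin. A joint call takes the larger p of its tests. On data simulated for this comparison, 94% of 100 genes changed by 1 on the log2 scale and 100% of 100 changed by 2 were called, as were 0.193% of unchanged genes, of which 82.5% were called matched. Of 200 genes changed by exactly the margin 2% were called matched. The simulated noise was independent between arrays, unlike the shared deviations of same-numbered arrays, so these rates need not hold for the measured arrays.

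Genes were named by rule: the 10 largest rises and 10 largest falls among calls without overlap, up to 4 different and 3 matched members per list, the 5 smallest p per joint class, and cell type markers. Other named genes (among them Mcidas, Gmnc, Scnn1g and Atp1b1) were chosen after their values were seen. The members and the 25 lists were chosen with earlier results of these data known. Same-numbered arrays of day 3 scrambled, day 9 Myb shRNA and day 9 scrambled deviated together in every pair of groups (9 pairs, correlations 0.249 to 0.626), and so the block was fitted as well. Different numbers ranged from -0.553 to 0.3, the positive values all between replicates 1 and 2, so mainly replicate 3 stood apart and not every array correlated best with its own number. The labels do not say what a number stands for. Alternatives were other normalisations, filters, margins, array weights, every probe, the 6 arrays alone and each array left out.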

Additional observations from a re-analysis of the deposited data

How the results depend on the processing

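The counts of different, higher and lower genes and of joint calls depended on the fit, while none of the 90 named differences changed direction. Of these, 90 kept their call with the block, 89 with the authors' log2 values, 71 with median normalisation and 69 to 90 with 1 array left out. Of 66 named matches, 47 to 65 were kept with 1 array left out and 42 with median normalisation. The numbers of arrays with the same label were read as pairs from the data; with the replicate number as a block, 2231 genes differed (1216 higher, 1015 lower), 130 were held at the day 3 level, 188 at the day 9 level, 47 lay between, 151 above and 111 below both controls, and 3858 matched both. In a blocked fit of the 6 arrays alone, chosen after seeing the data, 1820 differed (1025 higher, 795 lower), and without the block 335 (185 and 150). Median normalisation gave 437 different and 157 higher genes, 2468 matched, 0 between, 11 above, 21 below and 0 matched to both. With the authors' log2 values 4840 matched both, and with genes detected on all 6 arrays 33 lay below both. Without a detection filter, which raises the number of genes tested, 479 differed (245 higher, 234 lower), 15701 matched and 13706 matched both. Array weights, which ran from 0.14 to 21.7 and did not settle, gave 4265 different (2099 higher, 2166 lower), 1137 and 2132 held at the day 3 and day 9 levels, 103 between, 248 above, 238 below and 4476 matched to both. The margin set the matches: at 2-fold 7844 matched, 631 and 124 were held at the day 3 and day 9 levels and 7154 matched both, and at the narrower margin 0 matched and 0 matched both. Against a 1.5-fold margin 26 differed, 10 higher and 16 lower. Leaving out 1 array (those of day 9 scrambled were added after seeing the data) gave 386 to 1850 different, 184 to 971 higher, 191 to 879 lower, 2781 to 4290 matched, 0 to 6 between, 6 to 25 above both, 14 to 44 below both and 866 to 2117 matched to both. The cause of these shifts was not tested. Precision is limited by 3 arrays per group, and genes detected on no array of a group carry only bounds. Genes detected on 1 or 2 arrays of a group have differences set partly by background.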
